A study of Mus musculus with 4 samples.

Results

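CD28 family and inhibitory checkpoint receptors were followed through the Th2 cell arrays as 10 genes chosen by name: the CD28 family receptors Cd28, Icos, Ctla4 and Pdcd1, the related receptor Btla, the inhibitory receptors Lag3, Havcr2 and Tigit, and the surface ligands Cd274 and Cd200. Their probes were found by RefSeq transcript accession, which gave 11 probes for 9 of the 10 genes, out of 27198 named probes for 18539 genes. No probe carried an accession of Tigit, so no value is given for it. Icos and Havcr2 had 2 probes each and the other 7 genes had 1 each. The genes, and the lists used further on, were chosen with earlier results of these data known. Counts set beside shares of all genes therefore describe these genes and do not test them.

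T cells need a signal through the T cell receptor and a second, costimulatory signal, which CD28 delivers when it meets CD80 or CD86 on a partner cell. Activated T cells then display a set of related receptors, of which ICOS also costimulates, whereas CTLA-4, PD-1, BTLA, LAG-3, TIM-3 (the product of Havcr2) and TIGIT restrain the cell. PD-L1 (Cd274) and CD200 are ligands that activated T cells can carry themselves, and they engage inhibitory receptors on neighbouring cells.

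CD4 T cells from the spleen of female C57BL/6J mice were driven into Th2 cells, the helper T cells that make IL-4, IL-5 and IL-13, with or without SH-2251, a small molecule of the thioamide kind. The study asked which genes the compound alters in Th2 cells. Total RNA from 4 conditions was labelled with 1 dye, and each was read on 1 Agilent whole mouse genome array. All conditions shared 2 days on immobilized anti-TCR-β antibody (3 µg/ml) with anti-CD28 antibody (1 µg/ml), IL-4 at 10 ng/ml and IL-2 at 2.5 ng/ml, followed by 3 days in both cytokines alone. Per the methods the mice were 6 to 10 weeks old. The resting control cells received no compound, and the resting SH-2251 cells received it in both phases, which the labels give as 1 µM and then 1 mM. The methods of the study differ from the labels on the dose and on the starting cells (naïve CD4 T cells), and also list an anti-IFN-γ antibody. The restimulated control and restimulated SH-2251 cells were grown in the same ways and then put on immobilized anti-TCR-β antibody for 4 h. The number of mice behind each array was not given in the sources used here, and CD28 itself was bound by antibody during the first phase in every condition.

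With 1 array per condition, no test and no error between cultures can be given, and the small number of arrays sets the limit on precision. Levels are log2 intensities minus the log2 of the array's 75th percentile, so 0 is the signal that 75 percent of an array's probes lie below, and a level is compared only with levels of the same probe. A difference of 1 on this scale is 2-fold, and "rose" and "fell" are kept for changes of at least 2-fold. The technical SD beside a difference is the scanner software's own error estimate, 0.204 for most of these genes, and covers error within the arrays only. The probes used for the 9 genes (the brighter one where there were 2) were well above background on all 4 arrays, and none was saturated. The 4 T cell markers (Cd3e, Cd3g, Cd4 and Cd2) and the 7 Th2 markers (Gata3, Il4, Il5, Il13, Ccr4, Ccr8 and Il1rl1) were well above background on every array. Several Th2 markers still differed with SH-2251. Il1rl1 differed by -4.61 at rest and -3.78 after restimulation, Il5 by -3.86 and -3.01, and Il13 by -1.32 and -0.57. Ccr8 was 0.85 and 0.54 higher, and Gata3, Il4 and Ccr4 lay between -0.23 and 0.19.

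The promoters of 4 genes are shown because these genes changed with restimulation and differ in their direction with SH-2251: Ctla4 and Pdcd1 were lower, Havcr2 and Cd274 were higher. RefSeq promoters (GRCm38.p6, from 250 bases before to 50 bases after the start of the gene) were at hand for 7 of the 10 genes, and those of Cd28, Icos and Lag3 are not shown. Each is written 5′ to 3′ along its gene, and the capitals mark matches to motifs of factors that act below the T cell receptor.
Ctla4 promoter, chr1:60908775-60909074, plus strand, a single NFAT core: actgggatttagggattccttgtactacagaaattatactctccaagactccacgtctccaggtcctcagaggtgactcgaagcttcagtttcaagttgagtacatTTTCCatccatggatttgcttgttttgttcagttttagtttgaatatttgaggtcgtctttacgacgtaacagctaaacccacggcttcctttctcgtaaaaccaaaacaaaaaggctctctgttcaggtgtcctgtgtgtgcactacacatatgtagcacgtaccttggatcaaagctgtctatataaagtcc
Pdcd1 promoter, chr1:94052504-94052803, minus strand, a pair of adjoining NFAT cores: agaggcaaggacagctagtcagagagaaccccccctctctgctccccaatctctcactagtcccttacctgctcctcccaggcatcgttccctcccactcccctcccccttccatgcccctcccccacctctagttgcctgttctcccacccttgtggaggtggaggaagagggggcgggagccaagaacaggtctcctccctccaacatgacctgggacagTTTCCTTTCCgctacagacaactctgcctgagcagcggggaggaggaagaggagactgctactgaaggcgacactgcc
Havcr2 promoter, chr11:46454681-46454980, plus strand, an AP-1 site: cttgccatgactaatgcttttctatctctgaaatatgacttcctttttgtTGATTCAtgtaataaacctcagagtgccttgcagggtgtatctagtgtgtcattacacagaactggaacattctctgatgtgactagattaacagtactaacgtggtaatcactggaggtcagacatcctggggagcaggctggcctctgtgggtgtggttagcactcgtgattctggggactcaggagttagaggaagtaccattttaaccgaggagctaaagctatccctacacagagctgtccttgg
Cd274 promoter, chr19:29367188-29367487, plus strand, a pair of NFAT cores: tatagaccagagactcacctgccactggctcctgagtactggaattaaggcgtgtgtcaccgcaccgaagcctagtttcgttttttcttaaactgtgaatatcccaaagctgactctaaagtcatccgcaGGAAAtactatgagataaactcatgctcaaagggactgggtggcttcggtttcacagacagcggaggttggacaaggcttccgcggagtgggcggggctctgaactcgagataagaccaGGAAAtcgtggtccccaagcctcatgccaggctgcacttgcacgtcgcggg
The motifs searched on both strands were the AP-1 site TGANTCA, the NFAT core GGAAA and the STAT site TTCNNNGAA, and no 2 of the marked matches overlap. Havcr2 held 1 AP-1 match starting 200 bases before the gene start, a motif found in 7.81% of 32851 promoters of this length. The NFAT core, found in 61.3% of the promoters, occurred once in Ctla4 (144 bases before the start) and 2 times each in Pdcd1 (28 and 23 bases before) and Cd274 (120 bases and 1 base before). The STAT site (8.30% of promoters) was not among the letters of these windows. Those of Btla and Cd200 held none of the 3 motifs. A match describes the letters only, and a missing one says only that the letters are not in this window.

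**Figure D1:**
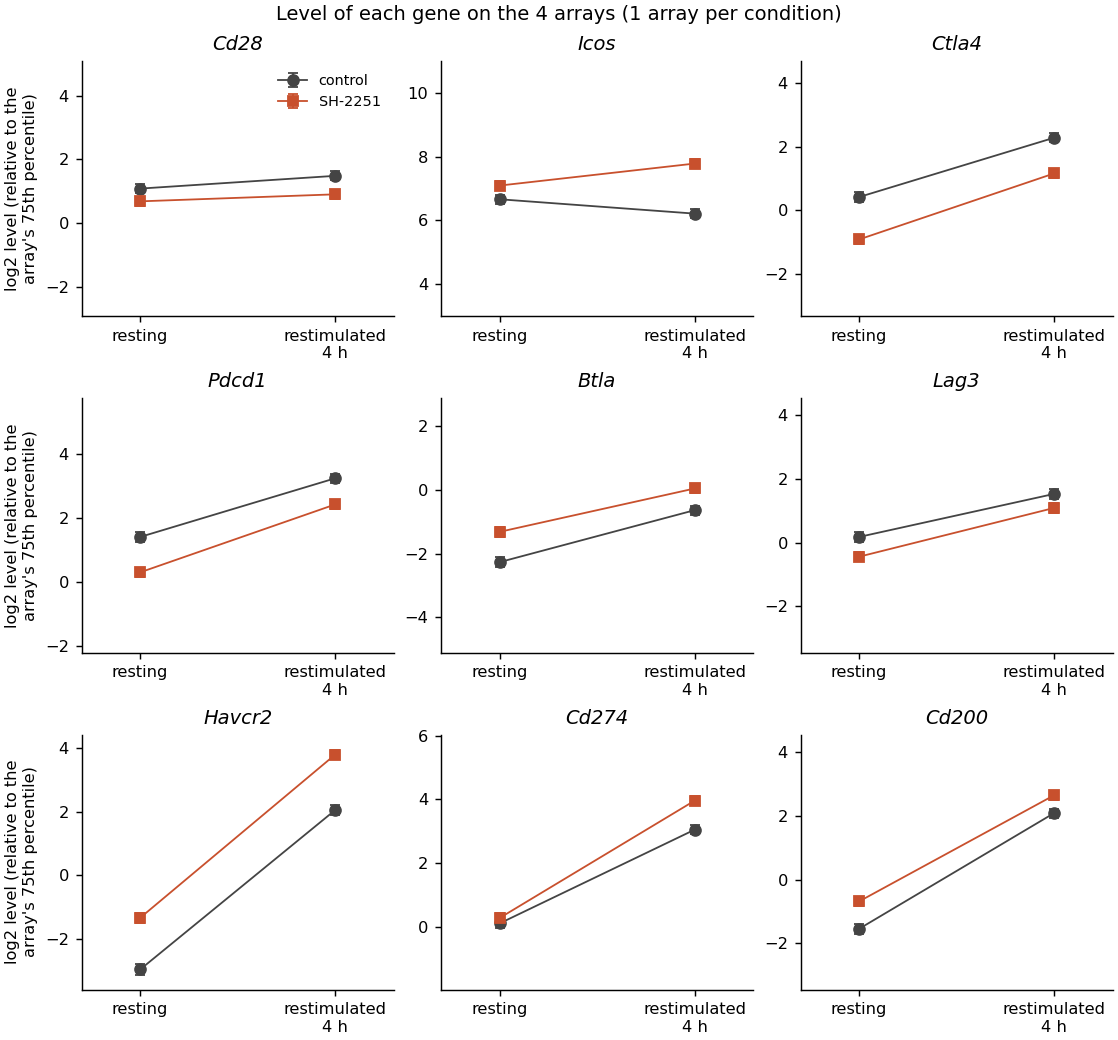
Level of 9 genes (1 panel each) on the 4 arrays, as log2 intensity minus that of the array's 75th percentile, in resting and 4 h restimulated Th2 cells; points are single arrays, bars are the technical SD, and each panel spans the same 8 log2 units. Restimulation separates the levels most for Havcr2 (range 6.74 over the arrays) and least for Cd28 (0.79), and the SH-2251 points lie below control for Cd28, Ctla4, Pdcd1 and Lag3 and above control for the other 5 genes.

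Restimulation raised 7 of the 9 genes, both ligands among them. Differences with SH-2251 went both ways, as they did over all genes. Ctla4, Pdcd1, Lag3 and Cd28 were lower with SH-2251 in both states, and Icos, Btla, Havcr2, Cd274 and Cd200 were higher in both, although the resting difference of Cd274 lay within its technical SD. In the resting cells Ctla4 and Pdcd1 fell at least 2-fold with SH-2251, which is 2 of 9 genes against 2.88% of all 12685 genes compared. Havcr2 rose, which is 1 of 9 against 2.26%, so that 3 of 9 changed either way against 5.14%. In the restimulated cells Ctla4 fell, 1 of 9 against 2.76% of 12624 genes, and Icos and Havcr2 rose, 2 of 9 against 2.65%, again 3 of 9 either way against 5.40%. Ctla4 was the 1 gene that fell in both states, as did 1.37% of 12150 genes, and Havcr2 the 1 that rose in both, as did 1.24%. Neither resting call held throughout. That of Ctla4 lay just short of 2-fold when background was modelled instead (normexp), and was -1.17 there without spots of uneven background. That of Havcr2 lay just short of 2-fold under normexp without those spots. Its mean over both probes was 0.52, but the dimmer probe was not well above background on either resting array. The direction was shared by both states for 9 of 9 genes, against 77.1% of the 11518 genes measured on all 4 arrays. The restimulated pair is not a replicate of the resting pair. In bulk RNA, fewer cells that carry a transcript and less of it per cell cannot be told apart.

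**Figure D2:**
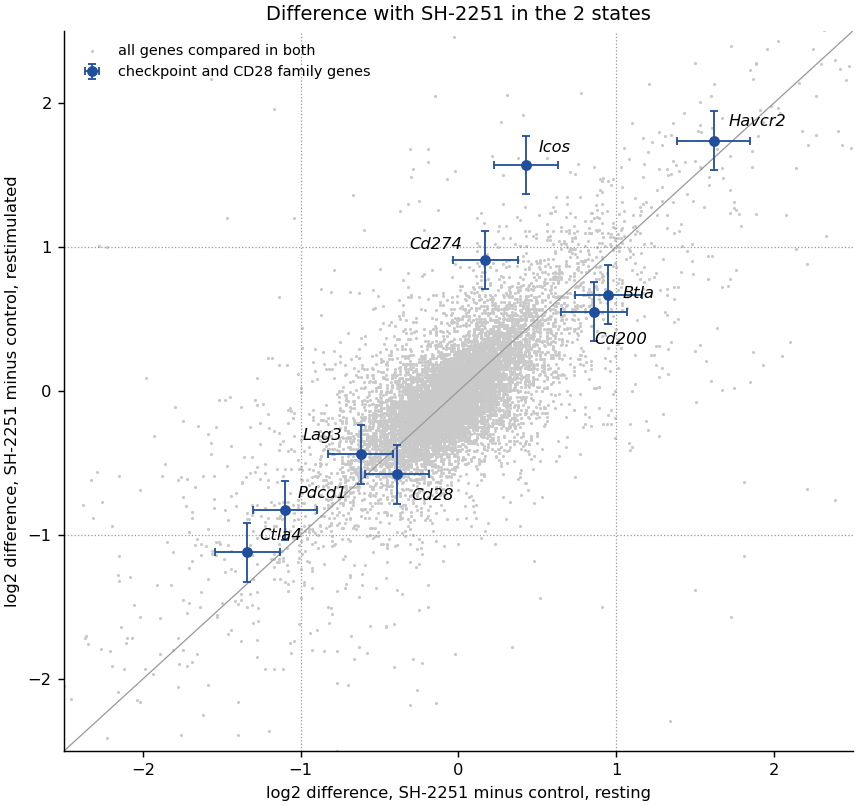
Log2 difference, SH-2251 minus control, in resting cells (x axis) and restimulated cells (y axis) for 9 CD28 family and checkpoint genes (blue, bars are the technical SD) and 12150 genes compared in both states (grey, 61 of which lie beyond the axes); dotted lines mark 2-fold and the solid line marks equal differences. Ctla4 lies at the lower left (-1.34 and -1.12), Havcr2 at the upper right (1.62 and 1.74), and Icos and Cd274 lie above the line.

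Cd28 encodes the costimulatory receptor itself and varied least. Its level was 1.08 in resting control, 0.68 in resting SH-2251, 1.48 in restimulated control and 0.90 in restimulated SH-2251 cells. Both SH-2251 arrays thus lay below both control arrays. The probe was spotted 10 times on each array, and the spots ranged from 1.04 to 1.11, from 0.65 to 0.73 (1 of 10 spots left out as an outlier), from 1.41 to 1.54 and from 0.84 to 0.97 in the same order, with no overlap between arrays. The SD between spots was 0.0241, 0.0289, 0.0353 and 0.0382, so that reading error on an array was small, while the error between cultures is unknown. With SH-2251, 76.1% of the control level was left in resting cells and 66.8% in restimulated cells (log2 differences -0.39 and -0.58). Neither reached 2-fold. The restimulation response of Cd28 was 0.40 in control and 0.21 in SH-2251 cells, both within 2 technical SDs. That software estimate is wider than the SDs between the Cd28 spots, which did not overlap between arrays.

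Icos, the inducible costimulator that helps T cells drive antibody responses, moved in opposite directions with restimulation in the control and SH-2251 cells. Its brighter probe read 6.66 in resting control, 7.09 in resting SH-2251, 6.21 in restimulated control and 7.78 in restimulated SH-2251 cells. The restimulated arrays held both the lowest and the highest value. In intensity units the restimulated control array read 36845 and the restimulated SH-2251 array 128032. The difference with SH-2251 was 0.43 (1.35-fold) at rest and 1.57 (2.98-fold) after restimulation, the latter ranking 105 from the highest of 12624 genes. Under normexp the resting difference was 0.10, within the technical SD of 0.204, and the restimulated one 1.56. Without spots of uneven background the resting difference under normexp was 0.40. Its dimmer probe read 5.31, 5.86, 4.64 and 6.37, with differences of 0.54 and 1.73. Both probes therefore placed the 4 arrays in the same order, and both fold increases after restimulation were near 3 (2.98 and 3.31).

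**Figure D3:**
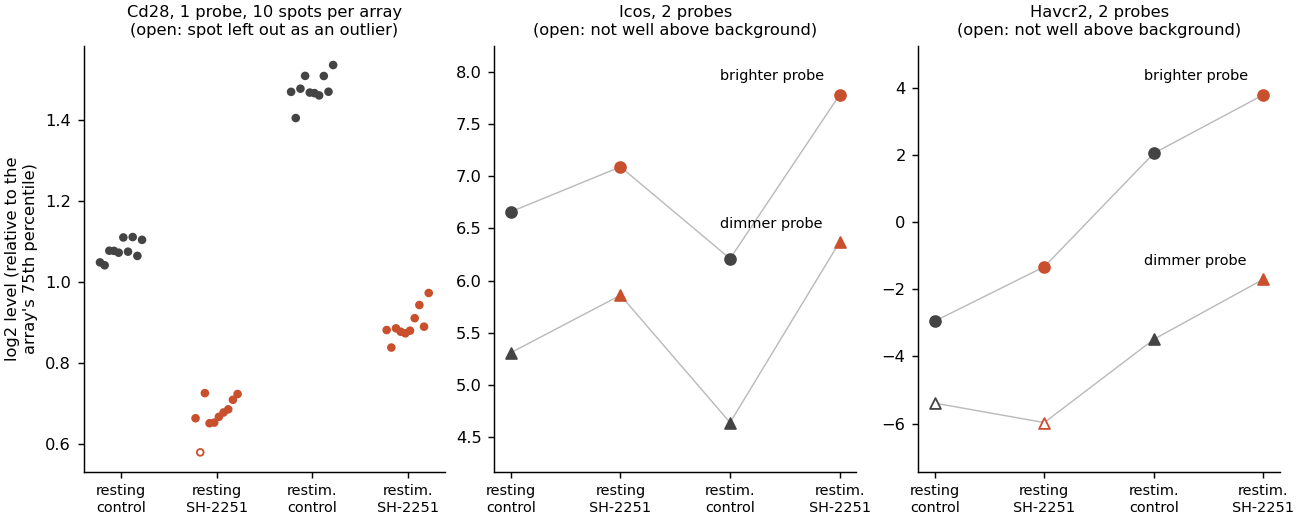
Log2 level relative to the array's 75th percentile for the 10 Cd28 spots on each array (left) and for both probes of Icos (middle) and Havcr2 (right), with control arrays in dark grey and SH-2251 arrays in orange; open symbols are a spot left out as an outlier (Cd28) or a probe not well above background (Havcr2). The Cd28 spots do not overlap between arrays, both Icos probes are lowest in restimulated control cells, and the dimmer Havcr2 probe is measurable only after restimulation.

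Ctla4 encodes the receptor that outcompetes CD28 for CD80 and CD86. Its level was 0.42 in resting control, -0.91 in resting SH-2251, 2.28 in restimulated control and 1.16 in restimulated SH-2251 cells. Each SH-2251 array lay below its control, although the restimulated SH-2251 cells lay above the resting control cells. With SH-2251, 39.6% of the control level was left at rest (log2 difference -1.34, technical SD 0.206) and 46.0% after restimulation (-1.12). The resting difference lay just short of 2-fold under normexp and was -1.17 there without spots of uneven background. The differences ranked 204 from the lowest of 12685 genes and 276 from the lowest of 12624 genes. Cd28, Ctla4 and Icos follow one another among the protein-coding genes of chromosome 1, and of these neighbours the outer pair, Cd28 and Icos, differed in opposite directions with SH-2251 while Ctla4 fell.

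Pdcd1, which encodes the PD-1 receptor, followed the same order of arrays as Ctla4. It read 1.41 in resting control, 0.30 in resting SH-2251, 3.25 in restimulated control and 2.43 in restimulated SH-2251 cells. Both differences with SH-2251 were downward, -1.10 (2.15-fold) at rest and -0.83 (1.77-fold) after restimulation, and only the resting one reached 2-fold. Lag3, a CD4-related receptor for MHC class II, read 0.18, -0.44, 1.53 and 1.09 on the same arrays. It was lowest in resting SH-2251 and highest in restimulated control cells, as were Ctla4, Pdcd1 and Cd28. Its differences of -0.62 and -0.44 left 64.9% and 73.6% of the control level and lay under 2-fold. Cd4, its neighbour on chromosome 6, differed by -0.33 and -0.22.

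Btla, a receptor for the TNF receptor family member HVEM, read -2.27 in resting control, -1.32 in resting SH-2251, -0.64 in restimulated control and 0.04 in restimulated SH-2251 cells. Its order of arrays was the opposite of that of Pdcd1 within each state, with SH-2251 above control. The differences were 0.95 (1.94-fold, technical SD 0.213) at rest and 0.67 (1.59-fold) after restimulation, short of 2-fold, and the resting one was 1.01 when arrays were scaled to their medians.

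Havcr2, which encodes TIM-3, had the widest range. Its brighter probe read -2.95 in resting control, -1.33 in resting SH-2251, 2.05 in restimulated control and 3.79 in restimulated SH-2251 cells. Each SH-2251 array lay above its control, and both restimulated arrays lay above both resting arrays. It rose with SH-2251 3.07-fold at rest (log2 difference 1.62, technical SD 0.231, rank 95 from the highest) and 3.35-fold after restimulation (1.74, rank 80). The dimmer probe was not well above background on either resting array (-5.39 and -5.97), so it gave no resting difference. After restimulation it read -3.49 in control and -1.70 in SH-2251 cells, a difference of 1.79 (3.46-fold). The resting difference of Havcr2 thus rests on the brighter probe alone, and a mean over both probes gave 0.52.

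The ligands were higher with SH-2251 by less than 2-fold. Cd274, the PD-1 ligand PD-L1, read 0.11 in resting control, 0.28 in resting SH-2251, 3.05 in restimulated control and 3.96 in restimulated SH-2251 cells. The resting pair differed by 0.17, within the technical SD of 0.205, and the restimulated pair by 0.91 (1.87-fold). Cd200, whose receptor quiets myeloid cells, read -1.54, -0.68, 2.09 and 2.65 on the same arrays. Its differences with SH-2251 were 0.86 (1.82-fold) and 0.55 (1.47-fold), upward in both states as for its chromosome 16 neighbour Btla.

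Against the technical error alone, 7 of the 9 genes differed with SH-2251 by more than 2 technical SDs in resting cells (all but Cd28 and Cd274) and 9 of 9 in restimulated cells. The same held for 18.9% and 19.1% of all genes measured on both arrays. Between restimulated and resting cells 8 of 9 did so in either treatment (all but Cd28), against 44.7% of all genes in control and 45.0% in SH-2251 cells. This measure leaves out the spread between cultures. The median difference of the 9 genes was 0.17 at rest and 0.55 after restimulation, against -0.06 for all genes in both states. In each state 4 of the 9 genes were lower and 5 higher. Of all 12685 genes compared at rest, 7285 were lower and 5390 higher. After restimulation 7303 of 12624 were lower and 5315 higher.

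Restimulation through the T cell receptor for 4 h raised 7 of the 9 genes at least 2-fold in control cells, against 7.24% of 12759 genes, and the same 7 in SH-2251 cells, against 7.08% of 12615 genes. None fell at least 2-fold, against 7.34% and 6.95% of all genes. A rise in both treatments was seen for 5.33% of all genes. The 7 genes were Ctla4, Pdcd1, Btla, Lag3, Havcr2, Cd274 and Cd200, that is, both ligands and each inhibitory receptor among the 9 genes. The costimulatory receptors Cd28 and Icos did not reach 2-fold. Of the other inhibitory receptors listed further on, 3 of 8 rose in control and 2 of 9 in SH-2251 cells. Under normexp the response of Btla in SH-2251 cells was 0.86, short of 2-fold, which leaves 6 genes there. Without spots of uneven background that response was 1.10 under normexp.

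**Figure D4:**
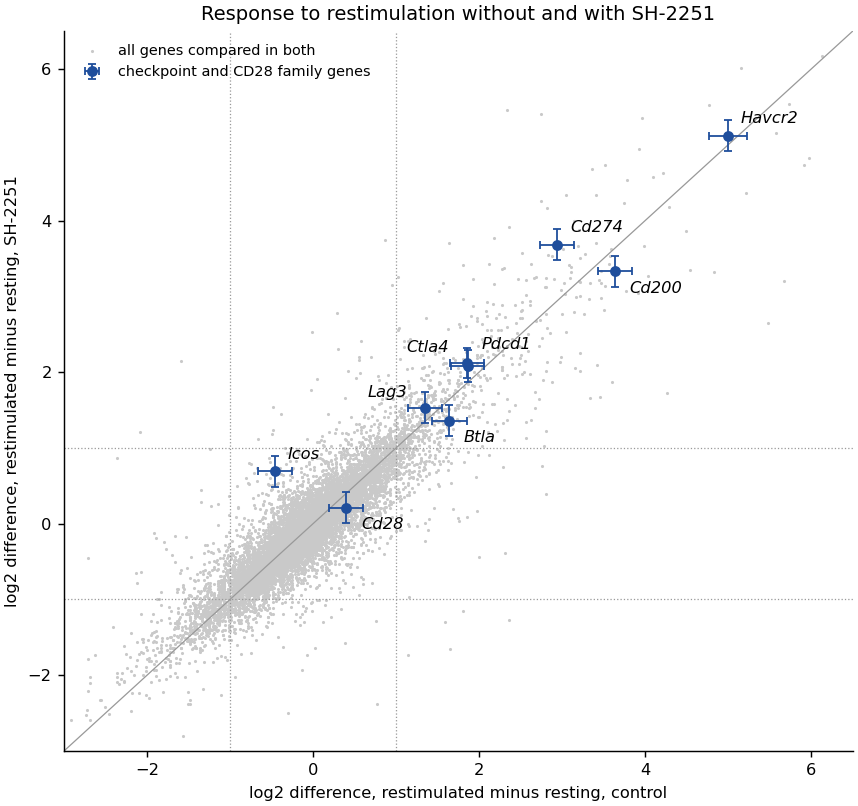
Log2 difference, restimulated minus resting, in control cells (x axis) and SH-2251 cells (y axis) for 9 CD28 family and checkpoint genes (blue, bars are the technical SD) and 12215 genes compared in both treatments (grey, 9 of which lie beyond the axes); dotted lines mark 2-fold and the solid line marks equal responses. Havcr2 lies at the upper right (31.9-fold and 34.8-fold), 7 genes lie beyond 2-fold on both axes, and Icos lies left of 0 and above 0 (-0.46 and 0.69).

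Havcr2 rose 31.9-fold in control and 34.8-fold in SH-2251 cells, ranks 18 and 17 from the highest of all genes. Its dimmer probe, which had no measurable resting level, was at least 2.45-fold higher in control and at least 7.76-fold higher in SH-2251 cells. Cd200 rose 12.4-fold and 10.0-fold, and Cd274 rose 7.65-fold and 12.8-fold. Ctla4 rose 3.62-fold and 4.21-fold, Pdcd1 3.60-fold and 4.36-fold, Btla 3.11-fold and 2.56-fold, and Lag3 2.54-fold and 2.88-fold, each in control and then SH-2251 cells. The ligands and Havcr2 therefore responded by larger factors than the other receptors in both treatments.

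The response itself differed with SH-2251 by at least 2-fold for 1 of the 9 genes, Icos, against 1.22% of 11518 genes. That response was higher with SH-2251, as for 0.738% of all genes, and none of the 9 was at least 2-fold lower (0.478% of all genes). With the mean over both probes Havcr2 passed 2-fold as well, at 1.25 (0.13 with its brighter probe) against 1.17 for Icos, a count of 2. That mean takes in resting readings of the dimmer Havcr2 probe that were not well above background, so it does not measure the difference in response. Icos was 0.46 lower after restimulation in control cells (72.8% of the resting level left) and 0.69 higher in SH-2251 cells (1.61-fold). The response with SH-2251 exceeded that in control cells by 1.15 (2.21-fold, technical SD 0.289), rank 59 from the highest. For the dimmer probe the responses were -0.67 and 0.51. Cd274 came next with 0.74 (1.67-fold, rank 191), and the other 7 genes lay between -0.31 and 0.28, close to their technical SDs of 0.289 to 0.308. These contrasts reuse the same 4 arrays as the differences with SH-2251 and add no further samples to them.

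The genes with profiles most like that of Havcr2, by Euclidean distance between log2 levels centred over the 4 arrays among 11518 genes, were Il31, Cdk5r1 and Plaur. Il31, a T cell cytokine of itch, was nearest at a distance of 0.734, with levels of -2.85, -0.71, 3.13 and 4.11. Cdk5r1, an activator of the kinase Cdk5, and Plaur, the urokinase receptor, both lay at 1.34.

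Of 15 ligands and partner receptors, 14 had a probe and 12 could be compared in each comparison, since Cd276 and Vtcn1 were not well above background on any array. With SH-2251, none of the 12 fell at least 2-fold in either state, 1 rose at rest and 2 rose after restimulation, with list medians of 0.15 and 0.35. Over all genes 2.88% fell and 2.26% rose at rest, and 2.76% fell and 2.65% rose after restimulation. Nectin3, a ligand of TIGIT, rose 2.29-fold and 3.17-fold on the brightest of its 3 probes. Cd80, a ligand of CD28 and CTLA-4, was 0.60 higher at rest and rose by 1.11 after restimulation, on a dim probe (levels -3.59, -2.99, -3.92 and -2.81).

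Restimulation moved several of these partners. Pdcd1lg2, the other PD-1 ligand (PD-L2) and the next protein-coding gene after Cd274 on chromosome 19, rose 5.72-fold in control and 7.57-fold in SH-2251 cells, while its differences with SH-2251 were -0.27 and 0.14. Cd200r1, the receptor of CD200, rose 3.06-fold and 3.41-fold. Icosl, the ligand of ICOS, fell in both treatments (log2 differences -1.83 and -1.60), and Nectin2, another TIGIT ligand, fell in control cells (-1.12) and differed by -0.84 in SH-2251 cells.

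Of 12 other inhibitory receptors, 8 could be compared at rest and 9 after restimulation, and 3 fell at least 2-fold with SH-2251 at rest and 2 after restimulation. None rose, and the medians were -0.39 and -0.28. The shares of all genes that fell were 2.88% at rest and 2.76% after restimulation, and 2.26% and 2.65% rose. Lair1, a collagen receptor, fell in both states (-1.30 and -1.31). Klrg1, a cadherin receptor of differentiated T cells, was at least 2.74-fold lower at rest, where its SH-2251 array gave no signal well above background, and fell by 1.69 after restimulation. Lilrb4a, a receptor with inhibitory tyrosine motifs, fell by 1.41 at rest and differed by -0.80 after restimulation.

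Restimulation raised 3 of 8 of these receptors in control cells and 2 of 9 in SH-2251 cells, and lowered 1 and 2. Of all genes 7.24% rose in control and 7.08% in SH-2251 cells, and 7.34% and 6.95% fell. Lilrb4a rose 4.83-fold and 7.35-fold, and Cd5, a brake on T cell receptor signalling, rose 2.15-fold and 2.75-fold. Cd244a, a receptor of the SLAM family, rose 3.09-fold in control cells and differed by 0.82 with SH-2251. Lair1 fell in both treatments (-1.57 and -1.58), and Ceacam1, a homophilic receptor, fell in SH-2251 cells (-1.16) and lay just short of 2-fold lower in control cells.

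Signalling and trafficking genes below these receptors were nearly level with SH-2251. All 16 with a probe, of 18 listed, were compared. Their medians were -0.15 and -0.04. None changed at least 2-fold at rest, against 5.14% of all genes, and 1 rose after restimulation, against 2.65%. That gene was Trat1, an adaptor that keeps CTLA-4 at the cell surface, at 0.88 and 1.11. With restimulation, Pik3cd, the catalytic subunit that CD28 and ICOS recruit, fell by 1.02 in control cells and differed by -0.89 with SH-2251. Sh2d1a, the adaptor SAP, fell by 1.10 and differed by -0.91.

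Among 16 transcription factors known to act on these genes, 13 were compared at rest and 14 after restimulation, and only Maf fell at least 2-fold with SH-2251 (-1.17 and -1.22). Maf drives IL-4 and several inhibitory receptors. The medians were -0.01 and 0.04, and no factor rose. At rest 2.88% of all genes fell and 2.26% rose, and after restimulation 2.76% fell and 2.65% rose. Restimulation raised 5 factors in control and 7 in SH-2251 cells and lowered 1 in each, Nfatc1 (-1.19 and -1.09), a factor activated by calcium signals. Over all genes 7.24% rose in control and 7.08% in SH-2251 cells, and 7.34% and 6.95% fell. Nr4a1, an immediate early factor induced by the T cell receptor, rose 70.2-fold and 71.8-fold, its relative Nr4a2 rose 10.1-fold and 8.97-fold, and Nr4a3 was at least 6.65-fold and at least 6.45-fold higher. Tbx21, which encodes T-bet, rose 6.89-fold and 8.71-fold, and Bcl6, a factor of follicular helper cells, 6.96-fold and 4.07-fold. Foxo1 and Irf4 passed 2-fold in SH-2251 cells (2.33-fold and 2.09-fold) and not in control cells (1.92-fold and 1.78-fold), and the difference was not tested. Both genes lay close to the threshold in both treatments (log2 0.94 and 1.22 for Foxo1, 0.83 and 1.07 for Irf4). The counts of 5 and 7 differ only through them, so they do not show a wider response with SH-2251.

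**Figure D5:**
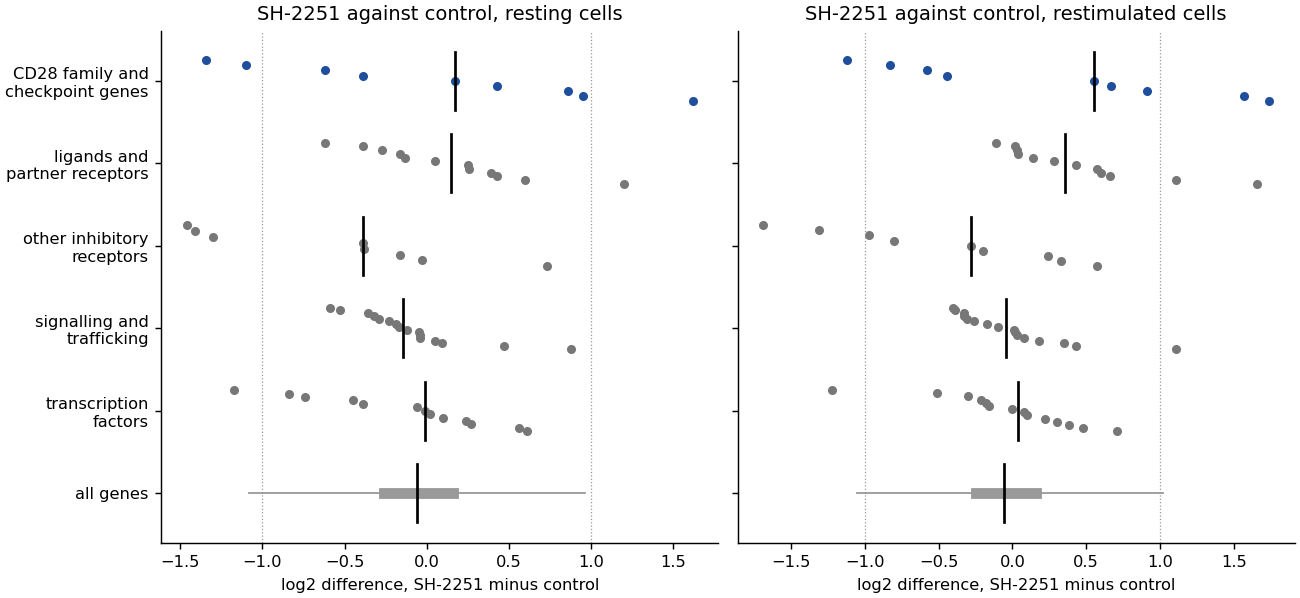
Log2 difference, SH-2251 minus control, for each compared gene of the CD28 family and checkpoint set (blue) and of 4 lists around it (grey), in resting (left) and restimulated cells (right); black bars are medians, bounds are drawn at their value, vertical offsets only separate the points, the bottom row gives the middle 50% (thick) and 95% (thin) of all genes, and dotted lines mark 2-fold. The other inhibitory receptors have medians of -0.39 and -0.28, and the signalling genes cluster near 0.

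Several of these receptors are also carried by regulatory T cells, follicular helper cells and CD8 T cells, so markers of those cells were read on the same arrays. Foxp3, the defining factor of regulatory T cells, read -3.84 in resting control and -3.74 in resting SH-2251 cells. After restimulation it was not well above background in control cells (-4.54) and read -3.83 with SH-2251. Ikzf2 was 1.26 higher at rest and, as a bound, 1.40 higher after restimulation with SH-2251. Ikzf4, Il2ra and Tnfrsf18 differed by -0.26, -0.36 and -0.23 at rest and by 0.03, 0.04 and 0.11 after restimulation. The summed signal of the 5 regulatory markers with a probe ranged from 283 to 359 times the 75th percentile, most of it from Tnfrsf18 and Il2ra. The 5 follicular helper markers were above background on every array, except Il21 on the resting SH-2251 array. Their summed signal was 13.2 in resting control, 8.87 in resting SH-2251, 10.6 in restimulated control and 6.82 in restimulated SH-2251 cells. Sh2d1a carried most of it and differed with SH-2251 by -0.59 at rest and -0.40 after restimulation. Bcl6 differed by 0.56 and -0.21, Cxcr5 by -0.71 and -0.06, and Ascl2 by -0.26 and -0.53. Il21 differed by -1.62 (a bound) and -2.25.

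For NK and CD8 T cells 3 of 5 markers with a probe were above background, and their sum was 64.8 and 95.3 in resting and restimulated control cells and 19.3 and 29.3 with SH-2251. Gzma, a granule protease, carried most of it and fell in both states (-1.78 and -1.72), whereas Cd8a was 1.45 higher at rest and 0.97 higher after restimulation, and Klrb1c and Ncr1 were not well above background on any array. Of 6 B cell markers 5 were above background (summed signal 3.74 to 5.78, Pax5 not above background), with Ms4a1 0.74 and 1.21 higher with SH-2251. Of 6 myeloid markers 3 were (2.44 to 3.00), and Lyz2, Itgam and Itgax were not above background on any array. The part of any such cells in the levels of the checkpoint genes was not tested.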

How the data were processed

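Total RNA (500 ng) was labelled with Cy3 and hybridised to Agilent whole mouse 44K arrays, 1 per condition, all on 1 slide and read in 1 scan. The authors deposited scanner intensities from Feature Extraction (10.7 in the submitters' processing notes, 10.7.3.1 in the file headers), already corrected for background, and a table of log2 values that, per the methods, were normalized with the Subio Platform. The deposited log2 values equalled the log2 intensity minus a constant within 0.01 for 99.6% to 99.7% of probes on each array, with a 75th percentile of 0.

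Intensities were transformed to log2 and the 75th percentile of each array was subtracted (561 intensity units for resting control, 614 for resting SH-2251, 499 for restimulated control and 583 for restimulated SH-2251). Control spots and 77 to 106 outlier spots per array were excluded, and replicate spots of a probe were averaged. Between 56.0% and 56.7% of probes were well above background, with 0 saturated. Of 41174 probes, 27198 (66.1%) were named through RefSeq accessions. The name table is on GRCm38.p6 and the arrays were designed on mm9, so it served only for names and neighbours. Of several probes for a gene, the brightest on average was used, and a gene was compared if well above background on at least 1 array of a pair. Where only 1 array qualified, the difference is a bound: the other array was given its own signal or the dimmest one well above background there, whichever was higher. Calls are 2-fold, without a test. Genes named are the members, up to 6 genes per list past 2-fold in any comparison by size, and the 3 nearest profiles to Havcr2. Among the transcription factors Maf, Foxo1, Nfatc1 and Irf4, and the marker genes given with values, were named after their values were seen. The values of 1 listed gene are not reported here. The members and lists were chosen with earlier results of these data known.

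Alternatives were other scalings, normexp (offset 50, planned on mean but run on median spot signals), filters, probe rules and folds of 1.5 and 3. The comparison was tested on simulated data. Python 3.11.15, numpy 2.4.6, pandas 2.3.3, matplotlib 3.10.9, R 4.3.3 and limma 3.58.1 were used.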

Additional observations from a re-analysis of the deposited data

Results flagged for a closer look

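Icos moved in opposite directions with restimulation in the 2 treatments. The log2 difference, restimulated minus resting, was -0.46 in control cells and 0.69 in SH-2251 cells, each more than 2 technical SDs from 0, and both Icos probes showed the same pair of directions. With 1 array in each condition the difference between the responses was not tested.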

How the results depend on the processing

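The 45 values of the 9 genes (4 differences and the difference in response for each) were recomputed under 8 alternatives, and 0 of those past 2-fold changed direction. With the authors' values, median centring, no filter or outlier spots kept, all 45 moved by less than 1 technical SD. That was largely fixed in advance and is not evidence of robustness. The authors' values are nearly the same intensities on the same scale, and median centring shifts each array by a constant. The filter removed none of the 9 genes, and among them only Cd28 had an outlier spot to put back. Quantile normalization moved 1 (the Icos response with SH-2251, 0.46) and the mean of all probes moved 4, all of Havcr2 (resting difference with SH-2251 0.52, responses 3.45 and 4.70, difference in response 1.25). Those 4 take in resting readings of the dimmer Havcr2 probe that were not well above background. Normexp moved 12, and normexp without spots of uneven background, added after the data had been seen, moved 10. On the resting SH-2251 array 4 spots lay below their local background and 12 were uneven. Under normexp the resting difference of Ctla4 lay just short of 2-fold, and it was -1.17 without uneven spots. The sign of the difference in response of Ctla4, 0.22, turned to -0.04 under normexp, and it was 0.13 without uneven spots. The resting difference of Havcr2 was 1.31 under normexp and 0.98 without uneven spots, and the cause was not tested. The resting difference of Icos with SH-2251 was 0.10 under normexp and 0.40 without uneven spots. The difference in response of Icos lay between 1.07 and 1.46.

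Counts of the 9 genes moved as follows. At rest, those lower with SH-2251 numbered 1 under normexp and 0 at 3-fold, and those higher numbered 2 under median centring (with Btla), 0 without uneven spots or with the mean of all probes, and 3 at 1.5-fold. After restimulation, those lower numbered 2 at 1.5-fold and 0 at 3-fold, and those higher 4 and 1. Restimulation raised 6 in SH-2251 cells under normexp (Btla at 0.86, and at 1.10 without uneven spots). The response differed at least 2-fold for 2 with the mean of all probes (Icos and Havcr2, the latter with a probe not well above background at rest). The 4 lists together held 5 genes changed with SH-2251 at rest (3 without uneven spots, 8 with no filter, 13 at 1.5-fold, 0 at 3-fold) and 6 after restimulation (3 under both normexp settings, 11 at 1.5-fold, 2 at 3-fold). Restimulation changed 17 in control cells (27 at 1.5-fold, 11 at 3-fold) and 16 in SH-2251 cells (28 and 10).

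Over all genes, the 365 lower with SH-2251 at rest became 162 under normexp, 181 without uneven spots, 798 with no filter, 943 at 1.5-fold and 141 at 3-fold, and the 287 higher became 703, 123, 623, 776 and 103. After restimulation the 348 lower became 158, 158, 950, 896 and 141, and the 334 higher became 149, 149, 678, 871 and 102. With restimulation of control cells the 937 lower became 444 under normexp, 443 without uneven spots, 2366 at 1.5-fold and 194 at 3-fold, and the 924 higher became 1924 and 383 at these folds. In SH-2251 cells the 877 lower became 1521, 439, 1421 with no filter, 2380 and 144, and the 893 higher became 1870 and 396 at 1.5-fold and 3-fold. No paired analysis was possible because each condition has 1 array.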
